A study of Homo sapiens with 3 samples.

Results

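Heat shock factor 1 (HSF1) and 9 heat shock proteins and co-chaperones were examined for MYC occupancy: HSP90AA1, HSP90AB1, HSPA4, HSPA5, HSPA8, HSPH1, DNAJA1, DNAJA2 and DNAJB1. These 10 genes are a set named by function out of 19974 protein-coding genes, each taken at its RefSeq span on GRCh38. A peak was assigned to a gene where its summit, the position of highest signal, lay inside the gene or within 5000 bp of it. MYC chromatin immunoprecipitation with an added reference genome (ChIP-Rx) had been done in parental U2OS cells, an established human osteosarcoma line, with 2 anti-MYC libraries and 1 input library. Chromatin of mouse NIH3T3 fibroblasts had been mixed into every library as the reference, and no heat shock, drug or genetic change is named for any of them. The data are 1 deposited list of 9818 peaks on hg38 with no values per library, so no value below carries a replicate error and no difference between genes could be tested against one.

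Heat shock proteins are molecular chaperones. HSP70 proteins bind exposed hydrophobic stretches of client proteins in a cycle of ATP hydrolysis that J-domain proteins start and that nucleotide exchange factors of the HSP110 family and others reset, and HSP90 proteins act later on folded but unstable clients such as kinases and steroid receptors. HSF1 is the main transcription factor of the heat shock response and binds heat shock elements, arrays of short inverted units of the letters GAA and TTC. MYC, paired with MAX, prefers the E-box CACGTG and is found at many active promoters of growing cells.

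Of the 10 genes, 9 had a MYC summit by this rule, beside 9520 of 19974 protein-coding genes (47.7%). The exception was DNAJB1. The 10 genes were chosen with earlier results of these data known, so this count is description only. Of the other HSP70 and HSP110 genes, left out of the set, 5 of 12 had a summit. The count rests on peaks beside the genes: with summits inside the gene span alone it was 3 of 10 (HSP90AA1, HSP90AB1 and HSPA8), beside 25.9% of protein-coding genes. The 9 genes held 11 peaks in all, since HSP90AA1 and HSP90AB1 had 2 each, and 16.4% of all genes with a summit held more than 1. The fold enrichment of IP over control, as the authors' list gives it, ran from 5.52 at HSPA5 to 31.7 at HSP90AB1 when each gene was described by its strongest peak, the one with the highest −log10 q. The median of these 9 folds was 11.0, and that of the strongest peaks of the 9520 genes was 8.56. In the stronger 50% of peaks by −log10 q the order of the medians turned, with 11.3 in the 8 genes left, below the 11.8 over all genes with a summit there. HSP90AB1 and the peak that HSF1 shares with BOP1 stood at the top of the set, and HSPA5 stood alone in the lower part of the whole list.

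**Figure D1:**
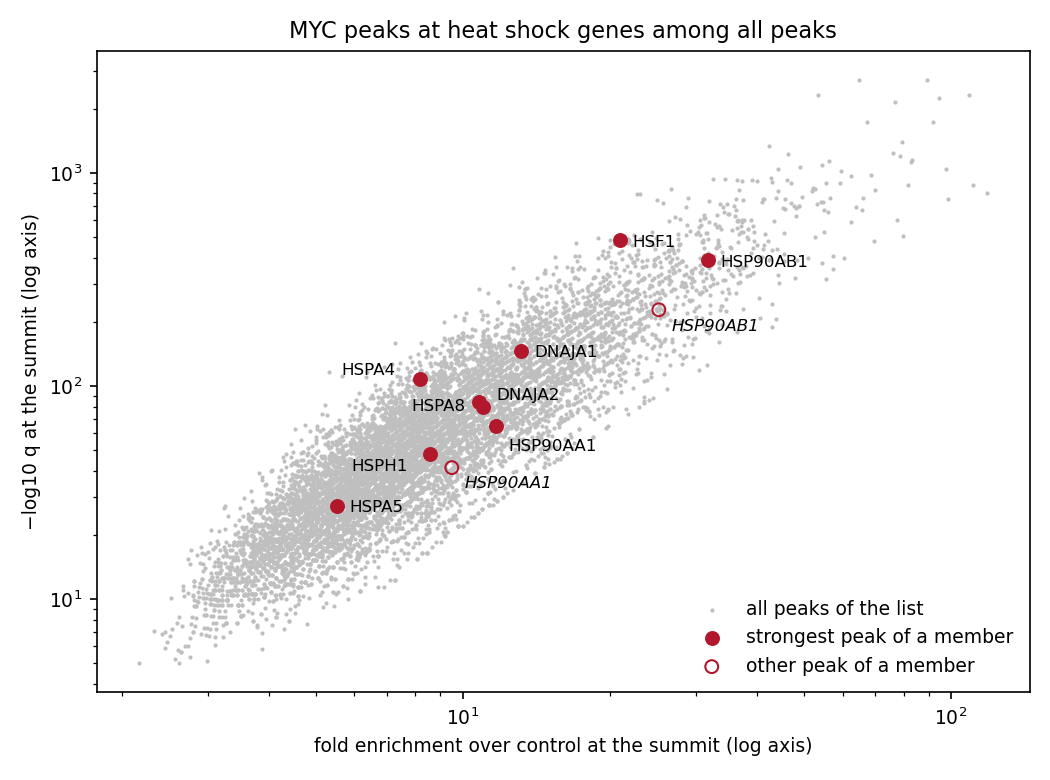
Fold enrichment at the summit (x, log axis) against −log10 q (y, log axis) for all 9818 peaks (grey) and the 11 peaks of the heat shock genes (red, open for a gene's second peak). HSF1 (fold 21.0) and HSP90AB1 (31.7) lie at the upper end of the cloud, HSPA5 (5.52) in its lower part, and HSPA4 and HSF1 have a high −log10 q for their fold.

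HSF1 had the highest −log10 q of the set, 481, which ranks 152nd among the 9818 peaks. Its fold of 21.0 ranked 606th. The peak covered chromosome 8 from 144290680 to 144292215, 1536 bp, with its summit at 144291234. That summit lay 370 bp outside the HSF1 span, which begins at 144291604, and 204 bp inside the neighbouring BOP1, a gene of ribosome biogenesis whose span ends at 144291438. Only 165 bp separate the 2 genes, and the peak covers both facing ends, so the values belong to the pair and cannot be assigned to HSF1 alone.

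The cytosolic HSP90 genes had unequal values in the list. HSP90AB1, which encodes the constitutive form, had a strongest peak of 2119 bp, at a fold of 31.7 (rank 206) and −log10 q of 388 (rank 237). HSP90AA1, which encodes the form known as stress-inducible, had one of 1490 bp, at a fold of 11.7 (rank 2369) and −log10 q of 65.0 (rank 3656). The ratio of the 2 folds was 2.72, without an error that could be set against it. All 3 annotated starts of HSP90AB1 lay inside its peak (chromosome 6, 44245938 to 44248056), and the summit lay 353 bp downstream of the middle start and 489 bp upstream of the last one. The second peak given to HSP90AB1 (fold 25.2, −log10 q 228) lay 3707 bp beyond the far end of the gene, the most distant that the rule admitted, and its summit lay 62 bp upstream of a start of SLC35B2, a Golgi transporter gene, and 576 bp from the span of NFKBIE.

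HSP90AA1 is annotated over 59008 bp with 2 starts, and each had a peak of its own. The stronger one (chromosome 14, 102086422 to 102087911) had its summit 541 bp upstream of the start at 102087044, deep inside the annotated span. The other one (102139269 to 102139841, 573 bp, fold 9.50, −log10 q 41.4) lay at the distant start at 102139749, where the span overlaps the first 327 bp of WDR20. Its summit was 296 bp downstream of that HSP90AA1 start and 30 bp downstream of a start of WDR20. The higher listed values thus belonged to the start inside the span, and a measure taken at the outer ends of the gene would give the peak that WDR20 shares.

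The promoter windows of the HSP90 genes that hold heat shock elements are shown because each lies entirely under a MYC peak. The sequences are from RefSeq on GRCh38.p14, 250 bases before to 50 bases after an annotated start, and capitals mark the heat shock element pairs TTCNNGAA and GAANNTTC (each reads the same on both strands, and the forms can overlap). They are the window of the last HSP90AB1 start (chr6:44247693-44247992, plus strand) and that of the inner HSP90AA1 start (chr14:102086995-102087294, minus strand).
HSP90AB1: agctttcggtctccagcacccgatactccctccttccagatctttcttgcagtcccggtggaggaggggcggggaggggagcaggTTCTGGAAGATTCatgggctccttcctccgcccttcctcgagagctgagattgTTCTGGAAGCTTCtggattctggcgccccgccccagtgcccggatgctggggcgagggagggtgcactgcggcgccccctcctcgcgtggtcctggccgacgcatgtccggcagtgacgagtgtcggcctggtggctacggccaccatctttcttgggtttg
HSP90AA1: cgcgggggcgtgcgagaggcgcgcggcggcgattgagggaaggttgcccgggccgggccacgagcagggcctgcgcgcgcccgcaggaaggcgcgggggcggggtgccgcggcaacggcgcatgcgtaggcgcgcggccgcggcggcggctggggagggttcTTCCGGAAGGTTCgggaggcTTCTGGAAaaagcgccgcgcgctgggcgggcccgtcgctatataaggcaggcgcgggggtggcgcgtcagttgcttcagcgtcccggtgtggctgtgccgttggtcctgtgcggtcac

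In the HSP90AB1 window the pairs began 165, 160, 112 and 107 bases before the start, so that each of 2 capital blocks holds 3 units in a row. In the HSP90AA1 window they began 88, 83 and 68 bases before the start, with 1 block of 3 units and 1 separate pair. The MYC summits lay outside both windows, 489 bp and 541 bp upstream of the respective start. In both genes the highest MYC signal lay in the same peak as the heat shock elements but outside the window that holds them.

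Of the HSP70 genes, HSPA8 encodes the constitutive cytosolic chaperone Hsc70 and HSPA5 the endoplasmic reticulum chaperone BiP. HSPA8 had the widest peak of the set, 2415 bp (chromosome 11, 123061290 to 123063704), wider than the strongest peak of 99.6% of genes with a summit. Its fold was 11.0 and its −log10 q 79.5. The summit lay 309 bp downstream of the annotated start, near one edge of the peak, 537 bp from its lower and 1877 bp from its upper end. The small nucleolar RNA genes SNORD14C, SNORD14D and SNORD14E, encoded within HSPA8, lay 2405, 2832 and 3671 bp from the summit and outside the peak. The upper part of the peak covered the start of the noncoding gene LOC124902775, 835 bp from the summit.

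HSPA5 had the weakest peak of the set, at a fold of 5.52 (rank 7441 of 9818) and −log10 q of 27.4 (rank 7297). Only 19.1% of genes with a summit had a lower fold at their strongest peak. The peak was 857 bp wide (chromosome 9, 125241257 to 125242113), and its summit lay 352 bp upstream of the HSPA5 start and 39 bp downstream of the start of HSPA5-DT, a noncoding gene transcribed away from HSPA5 and 312 bp from it. The HSPA8 fold was 1.99 times that of HSPA5.

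The HSPA8 window (chr11:123062087-123062386, minus strand) is shown with heat shock element pairs in capitals, and the HSPA5 window (chr9:125241294-125241593, minus strand) with both parts of an endoplasmic reticulum stress element in capitals, CCAAT and CCACG with 9 bases between them, the arrangement recognised by ATF6 with NF-Y. Both windows lie entirely inside their MYC peaks.
HSPA8: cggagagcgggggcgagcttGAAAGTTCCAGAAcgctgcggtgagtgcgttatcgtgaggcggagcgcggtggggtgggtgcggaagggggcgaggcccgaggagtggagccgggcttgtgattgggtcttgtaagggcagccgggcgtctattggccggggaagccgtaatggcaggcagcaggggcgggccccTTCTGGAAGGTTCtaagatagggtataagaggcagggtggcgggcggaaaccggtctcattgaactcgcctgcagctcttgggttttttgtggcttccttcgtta
HSPA5: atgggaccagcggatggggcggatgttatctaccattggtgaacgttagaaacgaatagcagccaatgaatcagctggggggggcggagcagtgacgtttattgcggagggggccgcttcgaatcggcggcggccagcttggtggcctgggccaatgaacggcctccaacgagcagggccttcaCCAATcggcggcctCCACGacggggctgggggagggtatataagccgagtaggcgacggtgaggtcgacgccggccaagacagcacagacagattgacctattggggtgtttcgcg

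HSPA8 held 2 blocks of 3 heat shock units, at 230 and 55 bases before the start. HSPA5 held no pair of either form, and its stress element began 66 bases before the start. The search on both strands found this stress element in 27 of the 35116 promoter windows of the RefSeq table (0.0769%). Among the 9996 windows with a summit within 1000 bp of the start it was in 14 (0.140%). The element was defined after the pair positions had been seen, so these shares are description only. The summits of both genes lay outside the windows shown.

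The HSP110 genes HSPA4 and HSPH1, whose products act as nucleotide exchange factors of HSP70, had folds of 8.18 and 8.58. Their −log10 q values were 108 and 47.9, ranks 1985 and 4891. The HSPA4 peak was the wider one, 1766 bp (chromosome 5, 133051211 to 133052976), with its summit 272 bp upstream of the start and no other gene within 5000 bp of it. The HSPH1 peak was 1342 bp wide (chromosome 13, 31161273 to 31162614) and reached 1123 bp from its summit towards the gene but 218 bp away from it. Its summit was the closest of the set to an annotated start, 8 bp upstream, with the noncoding gene LOC105370148 beginning 264 bp away on the other side.

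The HSPA4 and HSPH1 windows (chr5:133051763-133052062, plus strand, and chr13:31162339-31162638, minus strand) are shown because, of the sequence at hand, they hold the E-box letters nearest to a strongest summit, with any E-box, CANNTG, in capitals.
HSPA4: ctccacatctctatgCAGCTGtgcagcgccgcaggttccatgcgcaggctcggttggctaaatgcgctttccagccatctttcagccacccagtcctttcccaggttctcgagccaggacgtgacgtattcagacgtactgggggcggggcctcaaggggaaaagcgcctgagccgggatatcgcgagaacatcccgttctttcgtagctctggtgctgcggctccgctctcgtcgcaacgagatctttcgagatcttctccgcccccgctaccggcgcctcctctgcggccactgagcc
HSPH1: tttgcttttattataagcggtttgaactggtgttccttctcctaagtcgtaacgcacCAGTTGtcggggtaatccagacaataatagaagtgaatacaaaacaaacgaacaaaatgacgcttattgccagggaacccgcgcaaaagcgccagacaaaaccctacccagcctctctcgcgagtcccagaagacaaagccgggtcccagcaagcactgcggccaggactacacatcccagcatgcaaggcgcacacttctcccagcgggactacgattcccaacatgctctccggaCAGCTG

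The nearest such E-box was centred 39.5 bp from the HSPA4 summit and 54.5 bp from the HSPH1 summit. Neither window held the canonical form CACGTG or a heat shock element pair. HSPH1 had the lowest GC content of the 14 windows of the set, 51.7%, and was the gene without a GC box (GGGCGG).

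J-domain proteins deliver clients to HSP70 and stimulate its ATPase, and 2 of the 3 in the set had a peak. DNAJA1 reached 13.2-fold enrichment, at −log10 q of 147 (rank 1282), in a peak of 1376 bp on chromosome 9 from 33024457 to 33025832. Its summit lay 234 bp upstream of the DNAJA1 start and 81 bp inside APTX, a DNA repair gene whose span ends 152 bp from DNAJA1, so this peak too covers the facing ends of 2 protein-coding genes. DNAJA2 reached 10.8-fold, at −log10 q of 84.4 (rank 2707), in the narrowest strongest peak of the set, 853 bp on chromosome 16 from 46973284 to 46974136. Its summit lay 23 bp upstream of the start and 75 bp from the noncoding DNAJA2-DT.

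DNAJB1, which encodes Hsp40, a co-chaperone known to be induced by HSF1, had no summit within 5000 bp of its 45623 bp span (chromosome 19, 14514769 to 14560391). The nearest one lay 11738 bp beyond the span, 63 bp from an end of NDUFB7, a respiratory chain subunit gene, at a fold of 3.30 and −log10 q of 14.2. None of the 3 annotated DNAJB1 starts lay inside a peak, and the nearest summit to any of them was 21493 bp away. A summit is listed or not listed here, and lower occupancy under the authors' threshold would not appear.

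The windows of DNAJA1 (chr9:33025023-33025322, plus strand) and of the middle DNAJB1 start (chr19:14518348-14518647, minus strand) set a J-domain gene with a MYC peak beside the one without, with heat shock element pairs in capitals. The DNAJA2 window (chr16:46973625-46973924, minus strand) is shown because it holds the summit but no CANNTG. Its capitals mark the variant E-box CACGCG, which begins 250 bases before the start, at the edge of the window. The summit lay away from it, 23 bp upstream of the start.
DNAJA1: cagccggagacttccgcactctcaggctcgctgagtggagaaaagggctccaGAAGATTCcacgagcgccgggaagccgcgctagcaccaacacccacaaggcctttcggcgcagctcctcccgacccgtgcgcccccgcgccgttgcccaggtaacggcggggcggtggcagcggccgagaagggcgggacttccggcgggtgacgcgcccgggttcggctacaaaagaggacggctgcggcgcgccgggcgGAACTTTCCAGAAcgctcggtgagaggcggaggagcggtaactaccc
DNAJB1: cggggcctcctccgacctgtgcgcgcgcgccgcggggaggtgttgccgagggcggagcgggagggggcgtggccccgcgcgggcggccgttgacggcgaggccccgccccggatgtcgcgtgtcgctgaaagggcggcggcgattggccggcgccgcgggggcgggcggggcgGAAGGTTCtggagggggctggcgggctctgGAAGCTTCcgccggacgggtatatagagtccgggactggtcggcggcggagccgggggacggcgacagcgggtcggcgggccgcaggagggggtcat
DNAJA2: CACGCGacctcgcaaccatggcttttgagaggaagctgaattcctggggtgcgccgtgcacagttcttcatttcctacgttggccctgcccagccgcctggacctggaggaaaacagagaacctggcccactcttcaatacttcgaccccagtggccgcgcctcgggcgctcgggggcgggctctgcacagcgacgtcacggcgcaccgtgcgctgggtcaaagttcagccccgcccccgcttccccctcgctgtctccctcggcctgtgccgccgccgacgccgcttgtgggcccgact

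DNAJA1 had 1 block of 3 heat shock units beginning 3 bases after the start and 1 pair beginning 198 bases before it. The window of the middle DNAJB1 start had 2 separate pairs, beginning 77 and 47 bases before that start. Another DNAJB1 window, not shown, had 1 pair, beginning 1 base after its start. The DNAJA1 window lay inside its peak over all 300 bases and both of these DNAJB1 windows lay inside a peak over 0 bases. Windows with heat shock elements thus occurred both with and without a MYC peak.

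**Figure D2:**
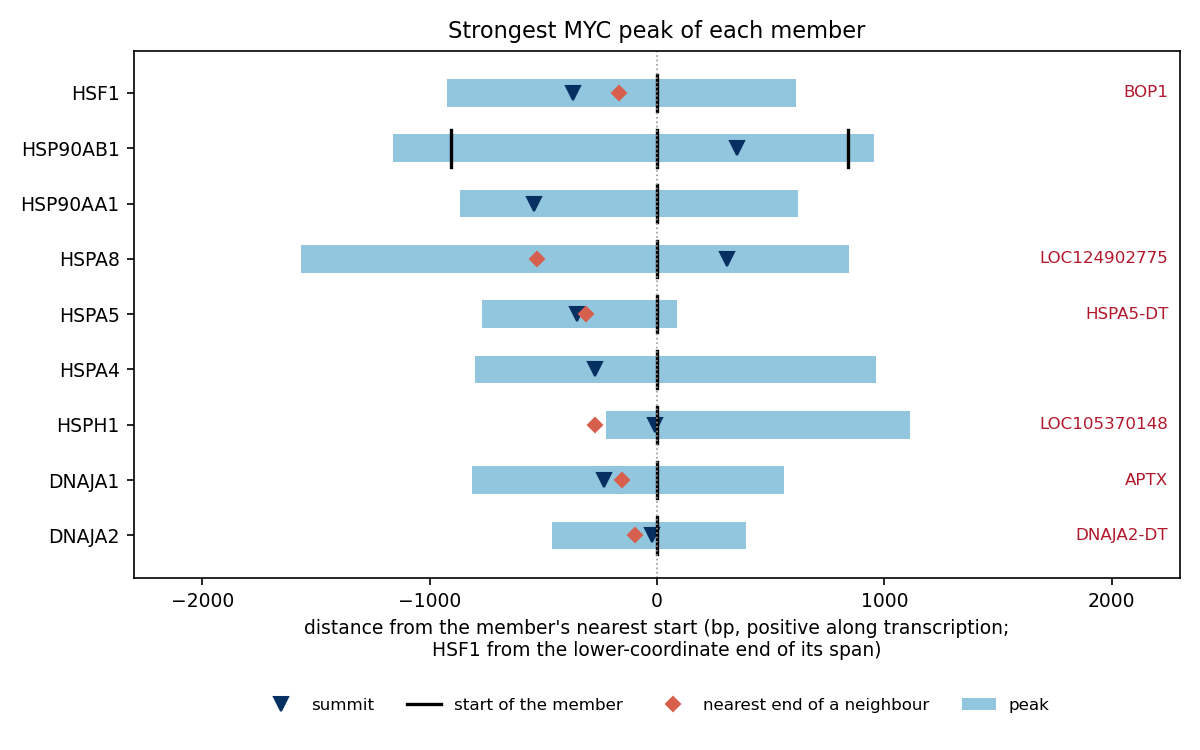
Extent (bar) and summit (triangle) of the strongest MYC peak of each of the 9 genes with a peak, against the distance in bp from the annotated start nearest the summit, with other starts as black ticks and the nearest end of a neighbouring gene within 1000 bp of the summit as a diamond. Every bar covers a start of its gene (for HSF1 the lower-coordinate end of its span), HSPA8 (2415 bp) and HSP90AB1 (2119 bp) have the longest bars, and 6 of the 9 genes have a neighbour's end beside the summit.

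By position, the peaks lay at starts. RefSeq promoter windows with a strand were matched for 9 of the 10 genes, all but HSF1. Of these 9, 8 had a summit within 1000 bp of an annotated start, beside 41.5% of 15812 protein-coding genes with such windows. That share counts genes without any summit. Among the 7879 genes with such windows and a summit by the rule, 6068 had the strongest one within 1000 bp of a start. All 8 genes here did too, so the position is the usual one for a gene with a summit. Of the 14 annotated starts, 11 lay inside a peak, and the 3 outside were those of DNAJB1. The strongest summit lay upstream of the nearest start in 6 of 8 genes and downstream in HSP90AB1 and HSPA8. Over all genes with the strongest summit within 1000 bp of a start, 58.4% lay upstream. The median absolute distance to the nearest start was 290.5 bp in the 8 genes and 208 bp over 7879 genes, so the summits of the set did not lie closer to a start than those of genes at large.

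Some of the peaks lay near the end of another gene, in a share not far from that of genes at large. The strongest summit had an end of another gene within 1000 bp in 6 of the 9 genes with a peak (HSF1, HSPA8, HSPA5, HSPH1, DNAJA1 and DNAJA2), beside 51.1% of the 9520 genes. The neighbour was protein-coding for HSF1 and DNAJA1 and noncoding for the other 4. The HSPA8 summit lay inside its own gene, 835 bp from the neighbour. HSP90AB1, HSP90AA1 and HSPA4 had their strongest peak to themselves by this measure.

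The strongest peaks of the set were 853 to 2415 bp wide with a median of 1490 bp, and the median over the 9520 genes was 821 bp. The latter takes strongest peaks at any position by the rule, while those of the set all cover a start or, for HSF1, an end of the span. Widths at like positions were not compared. All 9 were wider than that median. HSPA8, HSP90AB1 and HSPA4 were wider than 99.6%, 98.9% and 96.6% of genes. HSPA5 (857 bp) and DNAJA2 (853 bp) were wider than 53.7% and 53.3%, close to the middle of the list. The second peaks of HSP90AA1 and HSP90AB1, 573 and 747 bp, were narrower than 821 bp. Wide peaks did not go with high folds in each case: HSPA4 with 1766 bp had a fold of 8.18, under the median of 8.56, and HSPA8 with 2415 bp had 11.0. A wide peak can hold several starts, as that of HSP90AB1 did with 3.

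The order of the genes depended on the measure. By fold it was HSP90AB1, HSF1, DNAJA1, HSP90AA1, HSPA8, DNAJA2, HSPH1, HSPA4 and HSPA5. By −log10 q it was HSF1, HSP90AB1, DNAJA1, HSPA4, DNAJA2, HSPA8, HSP90AA1, HSPH1 and HSPA5. HSPA4 moved from place 8 to place 4 and HSP90AA1 from place 4 to place 7, while HSPA5 was last by both. With no spread between libraries, it cannot be said which neighbours in either order differ.

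Motif counts in the windows were set beside those of all windows of the table. The canonical E-box CACGTG was in 0 of the 14 windows of the 9 matched genes, beside 7.26% of the 35116 windows of the table and 11.8% of the 9996 windows with a summit within 1000 bp of the start. Any E-box, CANNTG, a pattern that includes the canonical one, was in 8 of 14, beside 68.7% and 57.6%. The variant CACGCG was in 4 of 14, beside 11.4% and 21.3%, and the variant CACATG in 1, beside 11.1% and 5.62%. The 14 windows include those of DNAJB1 and of the first HSP90AB1 start, which have no summit within 1000 bp. The second share in each comparison, here and below, is thus for an unlike set. The CACATG match and 1 of the CACGCG windows belong to DNAJB1, and another CACGCG window to that HSP90AB1 start. Both strands were searched throughout. With 14 windows, shares of this size amount to 1 or 2 windows for CACGTG, so its absence is close to them. A missing match says only that the letters are not in these 300 bases.

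The windows cover only part of the peaks. Windows of any gene covered no base of the HSF1 peak and between 17.0% and 72.3% of the bases of the other 10 peaks, and they held 6 of the 11 summits. In the covered part, CACGTG occurred in 1 of the 11 peaks, the one at SLC35B2 beyond HSP90AB1, which had 2 matches, the nearer centred 218.5 bp from the summit. CANNTG occurred in the covered part of 7 peaks. The covered parts of the HSPA8, DNAJA1 and DNAJA2 peaks held none, although the DNAJA1 and DNAJA2 summits lay in a window.

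A heat shock element pair of either form was in 6 of the 14 windows and in 5 of the 9 genes, HSP90AB1, HSP90AA1, HSPA8, DNAJA1 and DNAJB1, beside 13.5% of all windows and 9.81% of those with a summit near the start. Both forms overlapping, which gives 3 units in a row, occurred in 4 windows of 4 genes, HSP90AB1, HSP90AA1, HSPA8 and DNAJA1, and in 172 of all 35116 windows (0.490%). This stricter form and the stress element were defined after the pair positions had been seen. The GC box GGGCGG was in 13 of 14 windows, beside 45.0% of all and 73.5% of those with a summit near the start, and the CCAAT box in 6 of 14, beside 34.6% and 33.4%. The letters TATAAA were in none of the 14, beside 11.5% and 3.99%. The median GC content was 64.8% and the median ratio of observed to expected CpG 0.890, close to the 66.7% and 0.870 of windows with a summit near the start and above the 58.7% and 0.579 of all windows. The medians of the set include the DNAJB1 windows, which lie outside any peak and have a GC content of 62.0% to 78.7%.

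**Figure D3:**
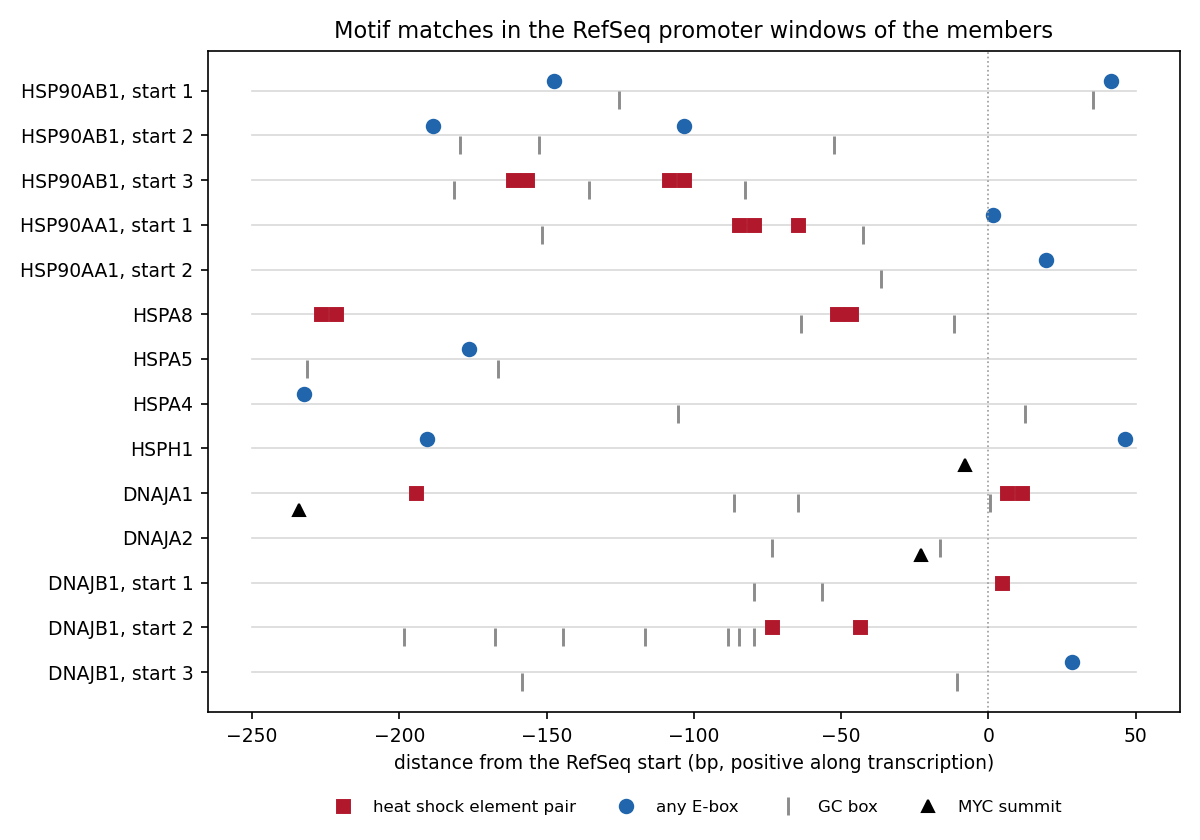
Positions of heat shock element pairs (red squares), any E-box (blue circles) and GC boxes (grey ticks) in the 14 RefSeq windows of 9 genes, with MYC summits that fall inside a window (black triangles), against distance from the start in bp. Red squares appear in 6 windows of HSP90AB1, HSP90AA1, HSPA8, DNAJA1 and DNAJB1, blue circles in 8 windows, and the 3 summits shown belong to HSPH1, DNAJA1 and DNAJA2.

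The other chaperone and heat shock genes, 104 in 8 families, had a summit by the same rule in 72 cases, beside the 47.7% of all protein-coding genes. Some of these summits lay closer to an end of another protein-coding gene than to an end of their own. The 72 cases and the counts per family below were not recounted by nearest end. The median fold of these 72 strongest peaks was 8.85, beside 8.56 over all genes with a summit. Both other HSP90 genes had one: TRAP1, the mitochondrial form, at 18.4, and HSP90B1, the endoplasmic reticulum form, at 13.5. The fold of TRAP1 lay between those of HSP90AA1 and HSP90AB1. The mitochondrial chaperonin genes HSPD1 and HSPE1 shared 1 peak with a fold of 33.5, close to the 31.7 of HSP90AB1.

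The HSP70 and HSP110 family outside the set had a summit in 5 of 12 genes, a share of 41.7%, with a median fold of 4.44. HSPA9, the mitochondrial HSP70, was highest with 30.9, followed by HSPA14 with 5.36 and HSPA12A with 4.44. The strongly heat-inducible genes HSPA1A and HSPA1B, with HSPA1L beside them, and HSPA6 had no summit (these names were chosen with the values in view). HSPA2, HSPA12B and HSPA4L complete the 7 genes of the family without one. For HSPA1A, HSPA1B and HSPA1L the absence cannot be told apart from that of their region. They lie on chromosome 6 in a stretch of 5.17 Mb without any summit, from 28399808 to 33571352, which holds 173 protein-coding genes, more than any other stretch between neighbouring summits (the next holds 67). HSPA1A and HSPA1B are also near-identical copies, and how reads with more than 1 match were treated is not given in the sources used here. HSPA6 lay 125247 bp from the nearest summit, in a stretch with 6 protein-coding genes.

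Among J-domain proteins outside the set, 30 of 46 had a summit, a share of 65.2%, with a median fold of 7.83. The 3 highest by −log10 q were DNAJC9, a histone co-chaperone, with a fold of 18.1, DNAJC2, a ribosome-associated co-chaperone, with 19.4, and DNAJC30 with 19.9, whose summit lay 5 bp from an end of BUD23. All 3 exceeded DNAJA1 by fold. DNAJA3 and DNAJA4, the other members of the A class, had no summit (names also chosen with the values in view).

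Nucleotide exchange factors had a summit in 9 of 9 cases, beside 47.7% of all protein-coding genes, with a median fold of 9.69. Some of these 9 summits lay closer to an end of another protein-coding gene than to an end of their own gene. By −log10 q the family was led by GRPEL2 (10.9), BAG2 (10.3) and BAG5 (14.4, with a summit 27 bp from an end of COA8). HSP90 and HSP70 co-chaperones had one in 14 of 17, with a median of 8.88. PTGES3, the HSP90 co-chaperone p23, reached 24.7, STIP1, which links HSP70 to HSP90, 13.0, and FKBP4 12.5. CDC37, which brings kinases to HSP90, FKBP8 and STUB1, a ubiquitin ligase, had none, with the nearest summits 10253, 9213 and 12352 bp outside these genes.

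Other heat shock factors and their regulators had a summit in 5 of 6 cases. HSF2 had a fold of 11.3, with its summit 28 bp downstream of a start. HSF5 had none. HSF2BP had the highest value, 45.5, at a summit 31 bp from its own end and 103 bp from an end of RRP1B, a nucleolar protein gene, and HSBP1L1 had 12.5. Small heat shock proteins had a summit in 5 of 10 cases with a median fold of 7.04. HSPB8 (16.8), HSPB9 (13.6, 50 bp from an end of KAT2A) and HSPB1 (7.04) were highest, with summits 1640, 1387 and 1064 bp from the nearest start of the gene, and HSPB2, HSPB3, HSPB7, CRYAA and CRYAB had none.

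**Figure D4:**
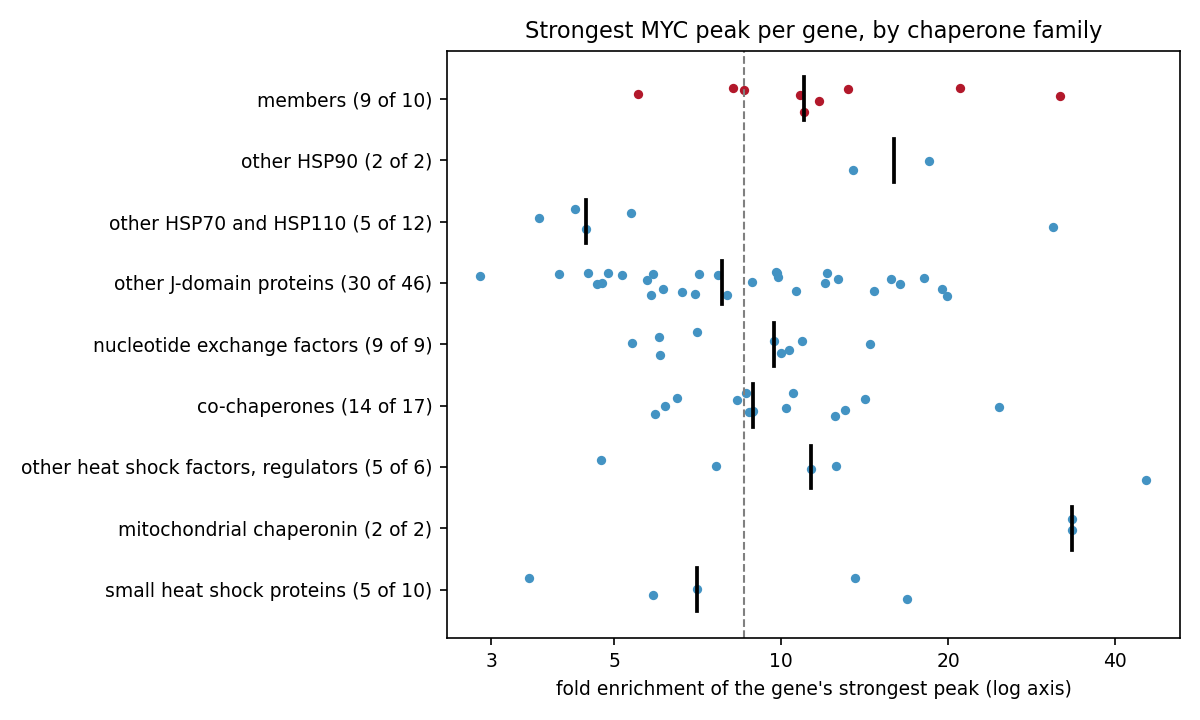
Fold enrichment of the strongest MYC peak of each gene with a peak (points, log axis) for 9 of the 10 heat shock genes (red) and the other chaperone families (blue), with the number of genes with a peak of the number in the family, the median as a black bar and the median over 9520 protein-coding genes (8.56) as a dashed line. The red points run from 5.52 to 31.7, and the other HSP70 and HSP110 genes lie mostly to the left of the line, with HSPA9 at 30.9 apart.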

How the data were processed

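MYC occupancy was measured by ChIP-Rx (2 IP libraries, 1 input library, parental U2OS cells), and the single file used is the peak list deposited by the authors. Tools named in the submitters' processing notes are MACS2, Bowtie2, cutadapt, Picard and SAMtools, and builds named there are hg38, hg19 and mm10, without versions or settings. The deposited list gives the authors' fold enrichment over control (a linear ratio), their −log10 p and −log10 q at the summit, and a peak score. The score and the −log10 p were not used. The sources used here do not give pooling, input scaling or the use of mouse reads, and the depth is unknown.

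Summits, written 1-based, were matched to RefSeq spans (GRCh38.p14, chromosomes 1 to 22 and X), and starts and sequences came from the RefSeq promoter table. Percentages over all genes use the same rules. No test was run, since the list has no replicate values. Python 3.11.15 with pandas 2.3.3 was used, and the assignment and motif functions were tested on simulated data. The 10 genes, the other families and the motifs were chosen with earlier results of these data known. The text names all 10 genes, the 3 highest genes of each other family by −log10 q, and the genes without a summit where a family has 5 or fewer. The planned description of protein sequences was not run. HSPB11 was matched under its current symbol IFT25. Alternatives were other windows, stronger peaks, any base of the peak, the nearest gene end and fold in place of −log10 q.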

Additional observations from a re-analysis of the deposited data

How the results depend on the processing

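The 9 of 10 genes with a summit remained 9 with windows of 500, 1000 and 10000 bp, a −log10 q of at least 10 or any base of the peak. The shares of all protein-coding genes in these settings were 42.4%, 44.1%, 50.9%, 47.2% and 47.9%, in that order. The count was 8 in the stronger 50% of peaks, beside 27.7% of all protein-coding genes. With each peak given to the protein-coding gene with the nearest end the count was 7, beside 38.4%, and HSF1 and DNAJA1 lose theirs to BOP1 and APTX. With a window of 0 bp, summits inside the gene alone, it was 3, with a median fold of 11.7, and the other chaperone genes fell from 72 to 39, beside 25.9% of all protein-coding genes. In the stronger 50% of peaks the median fold was 11.3, below the 11.8 over all genes and so in the opposite order to the whole list. There, 44 of the 104 other chaperone genes had a summit, beside 27.7% of all protein-coding genes. The 8 genes with a summit within 1000 bp of a start were 8 in all other settings but the stronger 50% of peaks, which left 7. The shares of all protein-coding genes with start windows were 38.3% to 44.6% in those settings and 23.8% in the stronger 50% of peaks. The fold of the strongest peak of no single gene moved with the window, where a summit was left, or with fold in place of −log10 q. No paired analysis was possible because the list holds no values per library, and for the same reason no library could be left out.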
